A study of Mus musculus with 35 samples.

Results

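The genes described here are 8 enzymes of the tricarboxylic acid (TCA) cycle and its borders (Cs, Idh1, Idh3a, Ogdh, Suclg1, Fh1, Mdh1 and Mdh2) and Acod1, which draws itaconate from the cycle. They were chosen by name, as 9 gene symbols, and each symbol matched a single row among the 32285 genes of the tables of the lactate and technique experiments and the 35624 symbols of the table of the AZD3965 experiment. Transcripts were counted in 35 single cells labelled primary macrophages, washed from the peritoneal cavity of male C57BL/6 mice aged 6 months and cultured until the non-adherent cells could be rinsed off. The lactate experiment set 8 cells kept in 10 mM lactate for 72 h beside 8 control cells without it. In the AZD3965 experiment, 5 cells had received 10 mM lactate together with 300 nM AZD3965, an inhibitor of the lactate carrier MCT1, and 5 cells 10 mM lactate alone, so that every cell of that experiment carried lactate. Both experiments used scMeT-seq, which takes a little cytoplasm by capillary for mass spectrometry and lyses what remains of the cell for SMART-seq2. In the technique experiment, 4 lactate-treated cells went through scMeT-seq, and 3 lactate-treated and 2 control cells were lysed whole. No source used here ties a cell to its mouse or dish. Each group was therefore treated as 1 sample, nothing was tested between groups, and the differences lack a check by replicates.

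In the TCA cycle, acetyl groups condensed with oxaloacetate by citrate synthase are oxidised through isocitrate, oxoglutarate, succinyl-CoA, succinate, fumarate and malate, and the cycle feeds electrons to the respiratory chain and carbon to biosynthesis. Activated macrophages are known for switching on Acod1, the cis-aconitate decarboxylase, which turns a cycle intermediate into itaconate, a metabolite that inhibits succinate dehydrogenase and activates the Nrf2 pathway. Lactate taken up by a cell can enter the same cycle after its oxidation to pyruvate.

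Total counts ran from 269393 to 459859 per cell in the lactate experiment, from 494520 to 851417 in the technique experiment and from 58444 to 175450 in the AZD3965 experiment. Of 18 macrophage markers, at least 15 had counts in every cell but the control cell CTL32, where 13 had counts, Cd68, Adgre1, Csf1r and Mertk were at 0, and the summed markers stood at 2533 CPM (counts scaled to a total of 1e+06 for the cell or group) against 41068 CPM or more in the other control cells of that experiment. CTL32 held 43969 CPM of the 14 fibroblast markers, so that its transcripts went against its label. Fibroblast or mesothelial markers reached 10% of the macrophage markers in 4 cells, the controls CTL30 and CTL32, the lactate-treated cell Lactic29 and the lactate+AZD cell W14. The log2 ratios of the members in the lactate and AZD3965 experiments are therefore given with and without these cells. For the gene lists the calls that changed without them are given beside the list.

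The stretches upstream of 4 members with a CCAAT box in the window are shown as examples. Differences of these genes are described below for Acod1 and Fh1 in the lactate experiment, Ogdh in the AZD3965 experiment and Cs in the technique experiment. That of Fh1 was a log2 ratio of 0.04 (-0.61 to 0.70) without the cells with fibroblast or mesothelial markers. Suclg1, without a CCAAT box in its window, and Mdh1, with it, also differed in the lactate experiment and are not shown. Each stretch shown is the part of the RefSeq promoter (GRCm38.p6) from 250 to 51 bases before the annotated start. It is read 5′ to 3′ along the gene, and capitals mark the CCAAT box in either orientation. Acod1 lies on the plus strand at chr14:103046762-103046961, Cs on the plus strand at chr10:128337477-128337676, Ogdh on the plus strand at chr11:6291347-6291546, and Fh1 on the minus strand at chr1:175625686-175625885.
Acod1: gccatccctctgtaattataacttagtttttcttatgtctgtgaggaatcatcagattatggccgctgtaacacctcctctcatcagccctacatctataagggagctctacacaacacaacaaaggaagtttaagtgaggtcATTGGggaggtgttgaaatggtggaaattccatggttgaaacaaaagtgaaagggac
Cs: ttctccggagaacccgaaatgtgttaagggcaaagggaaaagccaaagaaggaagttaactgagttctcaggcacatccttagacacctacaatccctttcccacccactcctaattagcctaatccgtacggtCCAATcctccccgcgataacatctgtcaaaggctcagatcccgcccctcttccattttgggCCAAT
Ogdh: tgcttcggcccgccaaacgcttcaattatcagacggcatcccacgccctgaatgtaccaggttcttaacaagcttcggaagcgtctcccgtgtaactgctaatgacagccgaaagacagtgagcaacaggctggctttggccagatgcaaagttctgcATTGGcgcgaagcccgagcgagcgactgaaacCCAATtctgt
Fh1: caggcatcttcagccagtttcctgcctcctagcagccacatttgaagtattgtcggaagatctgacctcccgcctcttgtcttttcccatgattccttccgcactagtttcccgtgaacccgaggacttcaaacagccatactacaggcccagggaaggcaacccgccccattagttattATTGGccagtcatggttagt
The window was searched on both strands for 8 motifs: the TATA box TATAAA, the CCAAT box CCAAT, the GC box GGGCGG, the AP-1 site TGANTCA, the E-box CACGTG, the cAMP response element TGACGTCA, a pair of GAAA parted by any 2 bases (as in interferon response elements) and GGG parted by any 5 bases from CC (as in NF-kB sites), in the 8 members with an entry, taking the entry farthest upstream where there were several (2 for Idh1 and 6 for Ogdh). CCAAT occurred in 6 of the 8 windows, and in 28.4% of all 32851 promoter windows of the same length. In Acod1 its first base lay 107 bases before the start. GGGCGG occurred in 5 of 8 windows (24.6% of all), the NF-kB form in 4 (37.2% of all) and TGACGTCA in 1 (0.828% of all), and a match of one motif could overlap that of another. The other 4 motifs, TATAAA (9.14% of all), TGANTCA (5.57%), the interferon response form (2.40%) and CACGTG (4.34%), were in none of the 8 windows, which says only that these letters are not there. Bases nearer to the start than 51 were not searched, so a TATA box there would have been missed.

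Acod1 (ENSMUSG00000022126, chr14:103046977-103056573 in GENCODE M21, plus strand) was the member with the largest positive difference after lactate in the lactate experiment. The 8 control cells held 0 CPM in CTL27, CTL28 and CTL32, 32.96 CPM in CTL31, 147 CPM in CTL30, 149 CPM in CTL33, 611 CPM in CTL35 and 890.1 CPM in CTL34. The 8 lactate-treated cells held 276, 300.1, 350, 372, 472, 505, 784 and 1239.8 CPM (Lactic30, Lactic32, Lactic34, Lactic29, Lactic33, Lactic31, Lactic27 and Lactic28). Every lactate-treated cell therefore carried Acod1, whereas the control cells fell into a larger number at or below 149 CPM and a pair, CTL34 and CTL35, within the range of the treated cells. A count of 0 in CTL27, the shallowest of the 3 cells at 0, allows up to 11.1 CPM.

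Summed over cells, Acod1 stood at 540.1 CPM (95% Poisson interval 514 to 567) after lactate and 216.5 CPM (200.01 to 234) in control cells, a log2 ratio of 1.32 (95% interval 1.19 to 1.45). These intervals, here and for every sum and ratio below, cover counting error only, since reads amplified over 20 cycles without molecular identifiers are not independent molecules. CTL34 alone supplied 47.6% of the control counts, and the log2 ratio was 2.07 without it. Without Lactic28, which supplied 30.9% of the treated counts, the log2 ratio was 0.99 and no longer reached 2-fold. Without CTL30, CTL32 and Lactic29, the cells with fibroblast or mesothelial markers, it was 1.10 (0.96 to 1.24). Left out together, these are called the 3 marked cells below.

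**Figure D1:**
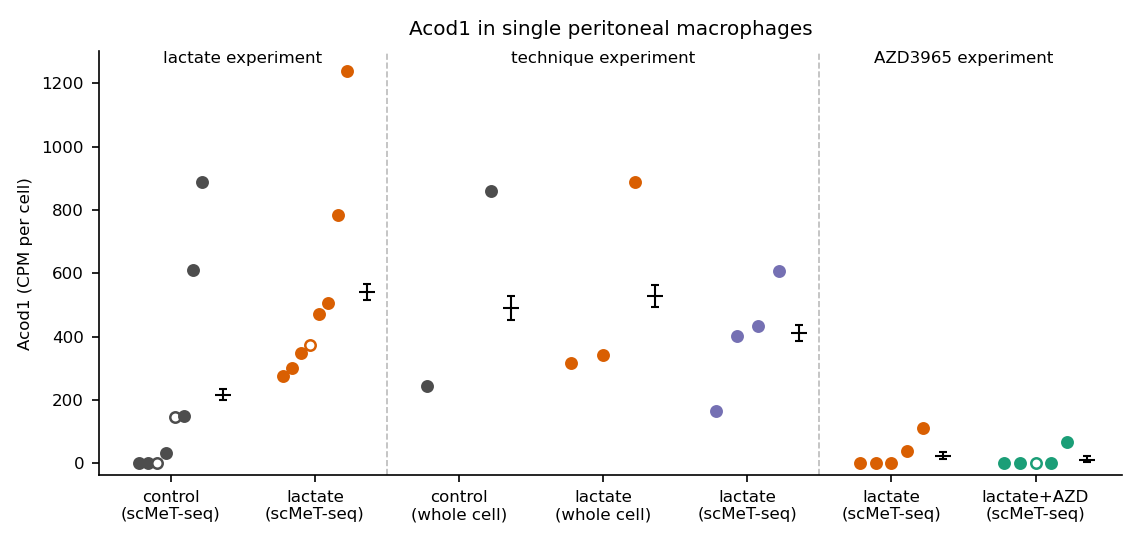
Acod1 in CPM per cell, by group and experiment, with cells sorted by value and open circles for the 4 cells whose fibroblast or mesothelial markers reached 10% of their macrophage markers. The bar beside each group is its summed CPM with the 95% Poisson interval, and the lactate-treated cells of the lactate experiment all lie at or above 276 CPM while 3 of the 8 controls lie at 0.

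In whole cells, Acod1 did not separate by treatment. The control cells CTL4 and CTL8 held 245 and 859 CPM, and the lactate-treated cells Lactic5, Lactic6 and Lactic7 held 317, 889.6 and 341 CPM. The treated range overlapped the control range, and the summed levels of 527 and 489 CPM gave a log2 ratio of 0.11 (-0.04 to 0.25). That ratio was -0.70 without CTL4 and 1.10 without CTL8. The 4 lactate-treated cells of the same experiment that went through scMeT-seq held 402, 164, 609 and 435 CPM (Lactic13, Lactic14, Lactic16 and Lactic17), a range that also overlapped that of the lactate-treated whole cells, with a log2 ratio of scMeT-seq over whole cells of -0.36 (-0.49 to -0.23). Without Lactic6 this ratio was 0.31.

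In the AZD3965 experiment, Acod1 had counts in 3 of 10 cells. Among the lactate-treated cells, T11 held 37.7 CPM and F18 110.5 CPM, and T13, W5 and W20 were at 0. Among the lactate+AZD cells, F9 held 66.4 CPM, and T10, W10, W14 and F8 were at 0. A count of 0 allows between 17.1 CPM in T13 and 51.3 CPM in F8. The groups overlapped, and the log2 ratio of lactate+AZD over lactate, -1.10 (-2.75 to 0.32) from 6 and 16 counts, had an interval around 0. It was -1.86 without F9, a bound because no other lactate+AZD cell had a count, and 0.12 without F18. The 3 tables were counted separately, so the low Acod1 level here, 22.2 CPM over the lactate-treated cells, stands beside the 540.1 CPM of the lactate experiment as a value and was not compared with it. Thinning every cell to the smallest total of its table (269393, 494520 and 58444 counts) left the number of cells with an Acod1 count as it was in each of the 7 groups.

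The genes whose CPM ranked the 16 cells of the lactate experiment most like Acod1, among 7623 genes with counts in at least 8 cells and without predicted genes, were Ets2, Pik3r6, Gtpbp8, AA467197 and Olr1. Spearman's rho was 0.89 for Ets2, an ETS family transcription factor, 0.80 for Pik3r6, a regulatory subunit of phosphoinositide 3-kinase gamma, and 0.80 for Gtpbp8. It was 0.79 for AA467197 and 0.79 for Olr1, a receptor of oxidised lipoprotein. All points of a rho share the treatment split of the 16 cells and differ in depth. In the 9 cells of the technique experiment the same genes gave 0.27, -0.59, 0.18, 0.12 and 0.54. In the 10 cells of the AZD3965 experiment, most of them without an Acod1 count, they gave 0.47, -0.41, -0.34, -0.21 and 0.06. Ets2 and Olr1 had a positive sign in all 3 tables, Olr1 at only 0.06 in the AZD3965 experiment. The genes were picked as the highest of 7623 in the lactate experiment, and the signs were not tested against chance. A kept sign therefore does not show that a gene follows Acod1.

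Of 10 inflammatory genes that are known to be induced with Acod1, 3 were at least 2-fold higher after lactate in the lactate experiment and 2 at least 2-fold lower, with a median log2 ratio of 0.03 beside -0.09 over all genes. Over all genes, 14.1% were at least 2-fold higher and 20.9% at least 2-fold lower. Il1b, the precursor of interleukin 1 beta, stood at 289 CPM in 6 of 8 treated cells with counts and 24.1 CPM in 4 of 8 control cells, a log2 ratio of 3.58 (3.23 to 3.95). Irf1, a transcription factor of the interferon response, had 2.46 (1.72 to 3.27), and the neutrophil chemokine gene Cxcl2 had 1.08 (0.89 to 1.26). In the other direction, Ptgs2, which encodes the inducible cyclooxygenase, had -2.43 (-2.89 to -1.98) and Nos2, the inducible nitric oxide synthase, had -3.95 (-5.30 to -2.86), with all 105 control counts of Nos2 in a single cell. Without the 3 marked cells Il1b, Irf1 and Nos2 kept their calls, at 3.37, 3.07 and -4.40, while Cxcl2 stood at 0.81 (0.62 to 1.00) and Ptgs2 at -0.40 (-1.03 to 0.23). In whole cells, 1 of the 9 measured genes of this list was higher and 3 were lower, where 14.1% and 26.4% of all genes were. There Il1b had a log2 ratio of -2.67 (-3.08 to -2.28) with every treated cell below both controls. Such a separation downward was found for 1499 of the 9732 genes measured. Nfkb1, an NF-kB subunit, had -1.40 (-1.86 to -0.94), Il6 had -3.76 (-9.19 to -0.98) from 1 and 11 counts, and Ptgs2, with 109 treated counts and no control count, was at least 29.4-fold higher. Il1b was thus higher after lactate in one experiment and lower in the other, a difference that was not tested.

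Genes that handle itaconate or its products showed no common direction. In the lactate experiment 1 of 5 was higher, Lrrk2, a kinase that works with Rab32 in delivering itaconate to vacuoles with bacteria, at 1.27 (1.08 to 1.45). Abcg2, an ATP-driven exporter, was lower at -2.09 (-2.98 to -1.29), and so was Auh, a hydratase of branched-chain breakdown, at -1.06 (-1.43 to -0.70). Of all genes, 14.1% were at least 2-fold higher and 20.9% at least 2-fold lower. Without the 3 marked cells Abcg2 kept its call, at -4.21 (-6.54 to -2.57), and Lrrk2 and Auh, at 0.71 (0.51 to 0.90) and -0.67 (-1.11 to -0.23), lost theirs. Among 8 genes of the Nrf2 pathway, 5 had an interval above 0 and none below 0, where 28.4% and 36.3% of all genes had, and 1 was at least 2-fold higher, Slc7a11, the cystine carrier, at 1.17 (1.07 to 1.27). Without the 3 marked cells 5 intervals again lay above 0 and none below, and the shares over all genes are not given for that set. Slc7a11 then stood at 0.90 (0.79 to 1.01) and was not called. Nqo1, a quinone reductase at -0.36 with all cells, then stood at 1.59 (0.68 to 2.60) from 47 and 13 counts. The median of this list was 0.61 in the lactate experiment, beside -0.09 over all genes, and 0.36 in whole cells, beside -0.20. In whole cells its member with a called difference was Nqo1, at 1.86 (1.44 to 2.31).

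The 8 cycle enzymes together stood at lower summed levels after lactate in the lactate experiment and at higher ones in whole cells. In the lactate experiment their summed CPM ran from 1082 to 1993 in the control cells, with a median of 1454, and from 849.7 to 1431 in the treated cells, with a median of 1138, so that the ranges overlapped. Over the groups the sums were 1437 CPM in control and 1100.0 CPM in treated cells. In whole cells, CTL8 and CTL4 held 1346 and 1424 CPM and Lactic7, Lactic5 and Lactic6 held 1629.7, 1676 and 1913 CPM, without overlap, and the sums were 1393 CPM in control and 1743 CPM in treated cells. In whole cells, Mdh1 stood at 161 CPM in control and 372 CPM in treated cells, Idh1 at 520 and 619 CPM and Mdh2 at 239 and 327 CPM. Cs, Ogdh and Fh1 were lower in the treated whole cells. The sums of the 2 experiments thus lay on opposite sides without all 8 enzymes following them, and that difference was not tested. Of the 9 members, 1 was at least 2-fold higher with an interval leaving out 0 (Acod1), where 14.1% of all 11506 genes measured were, and 2 were at least 2-fold lower (Suclg1 and Fh1), where 20.9% of all genes were. Intervals lay above 0 for 2 members and below 0 for 7, where 28.4% and 36.3% of all genes had such intervals, and the median log2 ratio was -0.50, beside -0.09 over all genes. Without CTL30, CTL32 and Lactic29 the median of the members was 0.02, beside 0.01 over all genes. Suclg1, Mdh1 and Mdh2 then still had intervals below 0, at -1.69, -1.26 and -0.61. Those of Cs, Idh3a, Ogdh and Fh1 held 0, and those of Acod1 and Idh1 lay above it.

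Suclg1 (chr6:73248382-73276911, plus strand), the alpha subunit of succinyl-CoA ligase, which makes succinate, differed most. Control cells held 60.7 CPM at the lowest, 131 CPM at the median and 215 CPM at the highest, and treated cells 0, 27.5 and 109 CPM. In 6 treated cells, with Lactic28 and Lactic31 at 0 and Lactic34 the highest at 43.0 CPM, the level lay below every control cell, and the other 2, Lactic32 and Lactic33, lay within the control range. The log2 ratio was -1.61 (-1.91 to -1.32), ran from -2.05 to -1.40 when single cells were left out, and was -1.69 (-2.01 to -1.37) without the 3 cells with fibroblast or mesothelial markers.

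Mdh1 (chr11:21556787-21572367, minus strand) is the cytosolic malate dehydrogenase of the malate-aspartate shuttle. Control cells ran from 126 CPM over a median of 211 CPM to 545 CPM, and treated cells from 3.46 CPM in Lactic31 over 132 CPM to 252 CPM in Lactic34. Its log2 ratio, -0.99 (-1.17 to -0.81), lay just inside the 2-fold limit, and without the 3 marked cells it was -1.26 (-1.45 to -1.07) and passed it. It was -0.66 without CTL28, the highest control cell. Mdh1 is the member whose exons overlap an exon of another gene, Wdpcp on the opposite strand, and reads of the pair cannot be told apart in counts that keep no strand. Wdpcp itself had 105 counts in control cells and 98 in treated cells, beside 752 and 391 for Mdh1.

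Fh1 (chr1:175600374-175625635, minus strand), the fumarate hydratase, had few counts, 96 in 5 of 8 control cells and 47 in 4 of 8 treated cells. The control cells CTL30, CTL32 and CTL35 held 78.4, 74.7 and 83.0 CPM, and the other 5 held at most 16.04 CPM. Lactic27, at 78.4 CPM, carried 59.6% of the treated counts, and Lactic33 held 37.2 CPM. Its log2 ratio of -1.08 (-1.61 to -0.56) was 0.04 (-0.61 to 0.70) without the 3 marked cells, 2 of which were among the 3 highest controls. It was -0.72 without CTL30, -0.79 without CTL32, -0.77 without CTL35 and -2.20 without Lactic27, and it also fell short of 2-fold without Lactic28, Lactic29, Lactic30, Lactic31, Lactic32 or Lactic34, at -0.93 to -0.87.

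The members at the first steps of the cycle had smaller differences. Cs (chr10:128337734-128362479, plus strand), citrate synthase, ran from 0 CPM in CTL27 over a median of 160.4 CPM to 310.0 CPM in CTL32 among controls, and from 51.3 CPM over 131 CPM to 228 CPM among treated cells, a log2 ratio of -0.20 (-0.39 to -0.01). Idh3a (chr9:54586334-54604661, plus strand), the catalytic subunit of the NAD-dependent isocitrate dehydrogenase, ran from 6.67 CPM over 32.2 CPM to 171 CPM and from 2.45 CPM over 39.8 CPM to 81.4 CPM, a log2 ratio of -0.41 (-0.75 to -0.07), which was -0.32 (-0.68 to 0.04) without the 3 marked cells. In both, the treated range lay almost wholly within the control range.

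Ogdh (chr11:6291633-6356642, plus strand), the first component of the oxoglutarate dehydrogenase complex, ran from 30.7 CPM over 143 CPM to 339 CPM in controls and from 68.2 CPM over 88.8 CPM to 235 CPM in treated cells. Its log2 ratio of -0.50 (-0.71 to -0.29) was 0.02 (-0.23 to 0.27) without the 3 marked cells, CTL30 being the highest control. Idh1 (chr1:65158616-65186500, minus strand), the NADP-dependent cytosolic isocitrate dehydrogenase, was the cycle gene with a positive difference, at 144 CPM, 339.8 CPM and 502 CPM in controls and 159 CPM, 395 CPM and 714 CPM in treated cells, with a log2 ratio of 0.33 (0.20 to 0.45), or 0.16 (0.03 to 0.30) without the 3 marked cells. Mdh2 (chr5:135778480-135790398, plus strand), the mitochondrial malate dehydrogenase, ran from 114 CPM over 339 CPM to 813 CPM in controls and from 171 CPM over 225 CPM to 394 CPM in treated cells, with a log2 ratio of -0.54 (-0.68 to -0.40), or -0.61 (-0.76 to -0.46) without the 3 marked cells. Its highest control, CTL27, had counts in 3392 genes, against a median of 7517.5 in controls, and the log2 ratio was -0.32 without CTL27. Control and treated cells overlapped for every one of these 5 genes.

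**Figure D2:**
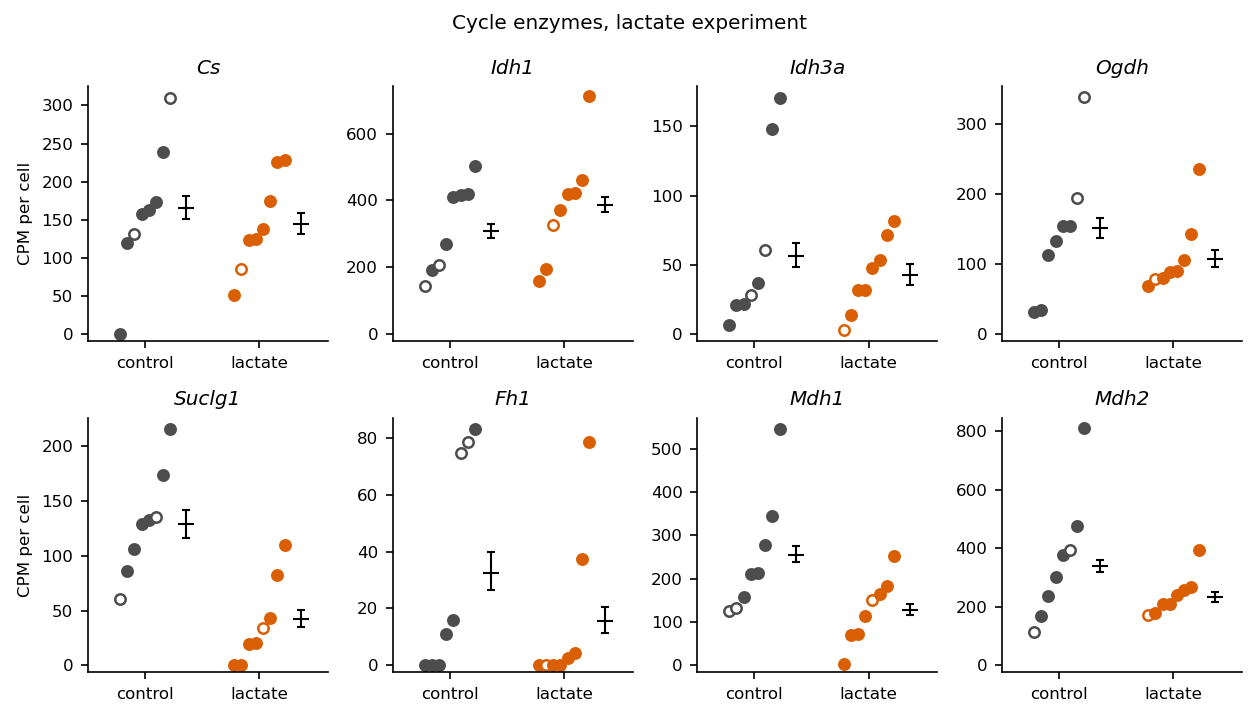
CPM per cell of the 8 cycle enzymes in the 8 control and 8 lactate-treated cells of the lactate experiment, sorted by value within a group, with open circles for the cells CTL30, CTL32 and Lactic29. The bar beside each group is its summed CPM with the 95% Poisson interval, and the 2 groups overlap in all 8 panels, least for Suclg1, where 6 treated cells lie below the lowest control at 60.7 CPM.

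Fibroblast markers differed between the groups of this experiment mainly through a few cells. Their summed level ran from 0 to 43969 CPM in control cells and from 0 to 7571 CPM in treated cells. The medians were close, at 249 and 239 CPM, and the control cells CTL32 and CTL30 held 43969 and 9572 CPM. In the summed groups, 10 of the 12 measured were at least 2-fold lower after lactate. Acod1, Suclg1 and Mdh1 kept their direction without the cells that carried these markers, with log2 ratios of 1.10, -1.69 and -1.26, while those of Cs, Ogdh and Fh1 were then 0.06, 0.02 and 0.04. In cells and sums alike, fewer transcripts of an enzyme and more of everything else cannot be told apart, since CPM values are shares.

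Among 12 further enzymes of the cycle, 2 were at least 2-fold higher after lactate in the lactate experiment and none at least 2-fold lower, with a median log2 ratio of -0.35. The shares over all genes were 14.1% higher and 20.9% lower. Sdha, the flavoprotein subunit of succinate dehydrogenase, stood at 244 CPM in 8 of 8 treated cells and 118 CPM in 5 of 8 control cells, a log2 ratio of 1.05 (0.86 to 1.23). The other subunits of that enzyme did not follow it, with -0.64 (-0.87 to -0.42) for Sdhb, the iron-sulfur subunit, -0.20 (-0.53 to 0.12) for Sdhc and -0.39 (-0.59 to -0.18) for Sdhd, the membrane anchors. Idh2, the mitochondrial NADP-dependent isocitrate dehydrogenase, had 1.30 (0.96 to 1.66). Without the 3 marked cells Sdha kept its call, at 1.02 (0.81 to 1.24), Idh2, at 0.70 (0.29 to 1.12), lost it, and Idh3b and Sucla2, at -1.14 (-1.47 to -0.81) and -1.05 (-1.42 to -0.69), were at least 2-fold lower.

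The rest of this group had smaller differences. Sucla2, the beta subunit of the ATP-forming succinyl-CoA ligase and thus a partner of Suclg1, had -0.99 (-1.33 to -0.66), and Suclg2, the beta subunit of the GTP-forming ligase, had -0.05 (-0.48 to 0.39). The partners of Idh3a, Idh3b and Idh3g, had -0.81 (-1.11 to -0.51) and -0.31 (-0.63 to 0.00). Dlst and Dld, which complete the oxoglutarate dehydrogenase complex with Ogdh, had -0.62 (-0.86 to -0.39) and 0.62 (0.19 to 1.06). With all cells Dlst thus lay on the side of Ogdh and Dld did not. Without the cells with fibroblast or mesothelial markers Dlst and Dld had -0.41 (-0.68 to -0.14) and 0.64 (0.18 to 1.10). Ogdh then stood at 0.02 (-0.23 to 0.27), which left it no side to share. Suclg2 then had -0.64 (-1.17 to -0.11), beside -1.05 (-1.42 to -0.69) for Sucla2. The cytosolic aconitase Aco1 had -0.83 (-1.17 to -0.49).

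At the entry of pyruvate and glutamine, 2 of 13 genes were higher and 2 lower, where 14.1% and 20.9% of all genes were, with a median of -0.31. Pdk1, a kinase that switches pyruvate dehydrogenase off, stood at 140 CPM in 7 treated cells and 22.4 CPM in 4 control cells, a log2 ratio of 2.64 (2.27 to 3.04). Its relative Pdk3 had -1.83 (-2.41 to -1.29), and Pdhx, which holds that enzyme complex together, had -3.51 (-4.87 to -2.39). Pdk4 had 11 counts, all in 1 treated cell. In whole cells Pdk1 had a log2 ratio of -1.13 (-1.50 to -0.75), so its direction was not shared, and that difference was not tested. Of 10 genes of the malate-aspartate shuttle and citrate export, Slc25a13, an aspartate-glutamate carrier, was lower at -1.05 (-1.67 to -0.45) and none was at least 2-fold higher. Without the 3 marked cells Pdk1, Pdk3, Pdhx and Slc25a13 kept their calls, at 2.44, -1.58, -3.27 and -1.20, and Pdk4 had no count. Pdk2, Pcx, Me2 and Slc25a11 were then also called higher, at 3.73 (from 16 and 1 counts), 2.02, 1.34 and 1.25. Pdp2 was then called lower, at -1.27. The shares over all genes are not given for that set of cells.

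The lactate comparison in whole cells, 3 treated against 2 control cells, gave another picture for the malate dehydrogenases. Of the 9 members, 1 was at least 2-fold higher, where 14.1% of the 9732 genes measured were, and none was at least 2-fold lower, where 26.4% were. Mdh1 held 162 and 159 CPM in CTL4 and CTL8 and 465, 375 and 296 CPM in Lactic5, Lactic6 and Lactic7. Every treated cell lay above both controls, and the log2 ratio was 1.21 (0.99 to 1.43), between 1.06 and 1.37 when single cells were left out. Wdpcp, which overlaps Mdh1, had 50 and 51 counts in the control and treated groups, beside 227 and 648 for Mdh1. The sign for Mdh1 was the opposite of that in the lactate experiment, where scMeT-seq was used. The difference between the experiments was not tested.

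Mdh2 and Idh1 also held higher values in every treated whole cell than in both controls. Mdh2 had 216 and 275 CPM in controls and 295, 277 and 399.6 CPM in treated cells, a log2 ratio of 0.45 (0.25 to 0.65). Idh1 had 547 and 479.6 CPM in controls and 637, 658 and 567.9 CPM in treated cells, a log2 ratio of 0.25 (0.11 to 0.39). Such a separation upward, which these 3 members showed, was found for 5.99% of all genes measured. With TMM factors, which raise every log2 ratio of this comparison by 0.19, the values for Mdh1, Mdh2 and Idh1 were 1.40, 0.64 and 0.44.

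For the remaining members the treated and control whole cells overlapped. Suclg1 held 107 and 105 CPM in controls and 42.5, 178 and 113 CPM in treated cells, with a log2 ratio of 0.13 (-0.19 to 0.44). Cs had -0.55 (-0.87 to -0.23), Idh3a 0.64 (0.15 to 1.14), Ogdh -0.27 (-0.54 to -0.01) and Fh1 -0.49 (-1.12 to 0.13), which was -1.02 without Lactic7. The median of the members was 0.13, beside -0.20 over all genes. Among the 12 further cycle enzymes measured, Idh2 was higher at 1.62 (1.19 to 2.07) with no overlap and Suclg2 lower at -1.38 (-2.08 to -0.71). In the lactate experiment Idh2 had reached 2-fold with all cells and not without the 3 marked cells. Sdha had 0.58 (0.38 to 0.78), Sdhb -0.35 (-0.58 to -0.13), Dld 0.38 (0.02 to 0.74) and Dlst -0.40 (-0.66 to -0.13). The log2 ratios of Aco1, Idh3b, Idh3g, Sucla2, Sdhc and Sdhd lay between -0.35 and 0.52.

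Carriers and entry enzymes supplied further called differences in whole cells. Dlat, the acetyl transferase of pyruvate dehydrogenase, was higher at 1.28 (0.83 to 1.75) with no overlap, and the phosphatase subunit Pdp2 was lower at -3.11 (-4.82 to -1.75) from 5 and 35 counts. Slc25a10, the dicarboxylate carrier, had 44 treated counts and no control count and was at least 11.9-fold higher. Me1, the cytosolic malic enzyme, with 23 treated counts, was at least 6.21-fold higher. Slc25a13 was lower at -3.41 (-5.10 to -2.07), as in the lactate experiment. Of the itaconate list, Clybl, which clears a breakdown product of itaconate, and Abcg2 were lower at -2.89 (-4.61 to -1.51) and -2.79 (-4.52 to -1.40), each from 5 treated counts.

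**Figure D3:**
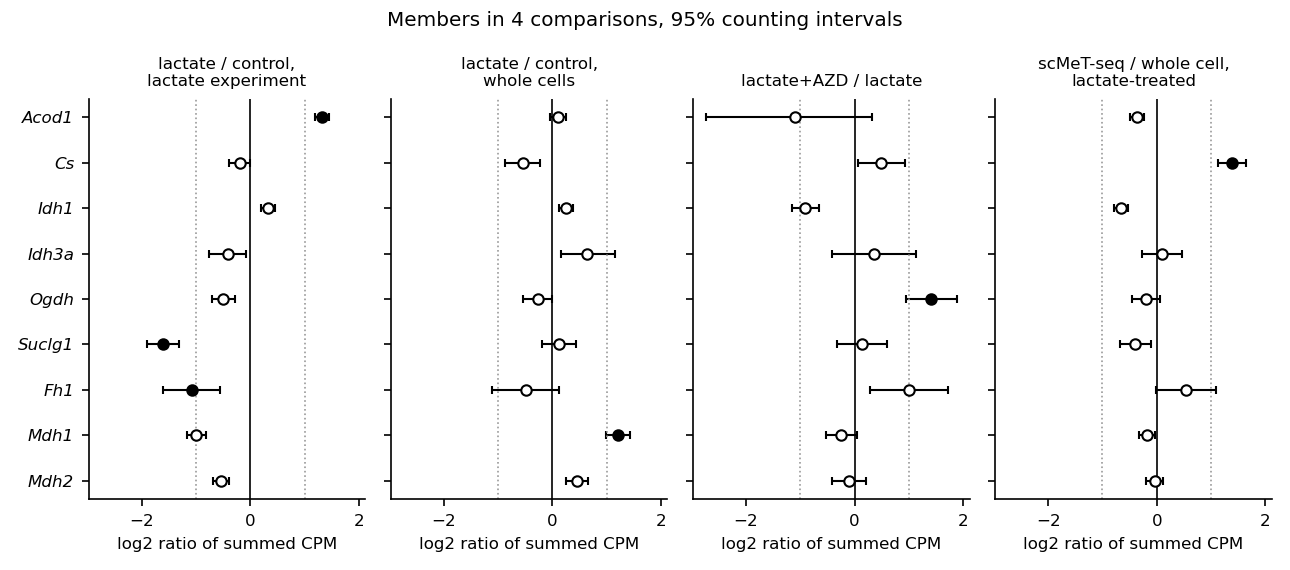
Log2 ratio of summed CPM (x axis) of the 9 members (y axis) in the 4 comparisons, with 95% binomial intervals that cover counting error only. Filled points are at least 2-fold from 0 with an interval leaving out 0, dotted lines mark 2-fold, and Mdh1 lies at -0.99 in the lactate experiment and at 1.21 in whole cells.

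With the MCT1 inhibitor added to lactate, Ogdh was the member that was at least 2-fold higher, where 21.7% of the 8764 genes measured were, and no member was at least 2-fold lower, where 12.5% were. The lactate-treated cells held 69.1 CPM in T11, 79.8 CPM in T13, 97.4 CPM in W5, 105 CPM in W20 and 22.1 CPM in F18. The lactate+AZD cells held 156 CPM in T10, 314 CPM in W10, 191 CPM in W14, 103 CPM in F8 and 221 CPM in F9. Only F8 lay within the range of the lactate-treated cells, below W20, and the other 4 lay above it. The log2 ratio was 1.41 (0.94 to 1.89) from 122 and 57 counts, and between 1.14 and 1.55 when single cells were left out. Cells named with the same letter gave 1.06 for T, 1.32 for W and 2.98 for F. What the letters stand for is not stated in the sources used here.

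Idh1 lay in the other direction. It held 565, 804, 427, 419 and 1060.5 CPM in the lactate-treated cells T11, T13, W5, W20 and F18 and 389.5, 501, 297, 51.3 and 210.2 CPM in the lactate+AZD cells T10, W10, W14, F8 and F9. The groups overlapped through W10, which lay above W5 and W20, and the log2 ratio was -0.91 (-1.16 to -0.66). It was at least 2-fold lower without W5 (-1.01), W10 (-1.19) or W20 (-1.04), and with TMM factors (-1.07), which lower every log2 ratio of this comparison by 0.16. Within letters it was -0.83 for T, -0.07 for W and -2.84 for F, the last resting on F8, F9 and F18, the 3 shallowest cells at 58444, 90378 and 90523 counts.

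Fh1 stood close to 2-fold, at 0.99 (0.28 to 1.73) from 45 and 28 counts. F8 held 291 CPM, W14 127 CPM, F9 66.4 CPM, T10 28.3 CPM and W10 0 CPM, against 110.5 CPM in F18, 60.0 CPM in W5, 49.3 CPM in W20, 12.6 CPM in T11 and 0 CPM in T13. The ranges overlapped widely, and the log2 ratio was 0.46 without F8 and 1.44 without F18. Cs had 0.49 (0.07 to 0.92), and Idh3a, Suclg1, Mdh1 and Mdh2 had 0.36, 0.13, -0.24 and -0.11 with intervals around 0. Without W14, the lactate+AZD cell with fibroblast and mesothelial markers, Acod1 and these 5 had -0.70, 0.70 (0.25 to 1.14), -0.02, 0.42, -0.28 and -0.10, in the order Acod1, Cs, Idh3a, Suclg1, Mdh1 and Mdh2. Counts of 2 outnumbered counts of 1 in this table, as they would if both ends of a fragment were counted, which the sources used here do not say. With all counts halved the intervals were 0.77 to 2.13 for Ogdh, -1.27 to -0.56 for Idh1, -0.07 to 2.04 for Fh1 and -0.12 to 1.11 for Cs, so that those of Fh1 and Cs then held 0, and the limits that a count of 0 allows would be 2 times as high. The median of the members was 0.13, beside 0.17 over all genes, and with TMM factors it was -0.03.

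The other cycle enzymes gave no called difference with AZD3965. Of the 11 measured, 2 had an interval above 0, Idh3b at 0.72 (0.10 to 1.35) and Idh3g at 0.62 (0.03 to 1.21), where 28.4% of all genes had, and 1 below 0, Sdhb at -0.57 (-0.98 to -0.16), where 17.5% had. Aco1, Idh2, Dlst, Dld, Sucla2, Sdha, Sdhc and Sdhd lay between -0.69 and 0.28, and Suclg2 had too few counts. Over all genes, 21.7% were at least 2-fold higher with AZD3965 and 12.5% at least 2-fold lower. Of the 9 entry genes measured, 2 were higher and none lower, Pdha1, the alpha subunit of pyruvate dehydrogenase, at 1.02 (0.33 to 1.72) and Pdk1 with 10 and 0 counts. Of the 10 shuttle and export genes, Slc25a10 was higher at 2.09 (0.99 to 3.35) and none was lower. Rab32, which with Lrrk2 serves itaconate delivery, was the called member of the 3 itaconate genes measured, lower at -1.19 (-1.79 to -0.62). Of the 6 inflammatory genes measured, Tnf was higher with 17 and 0 counts, and Nfkb1, at -1.46 (-2.64 to -0.41), and Ptgs2, with 0 and 14 counts, were lower. Of the 7 Nrf2 pathway genes measured, Gclc, which makes a glutathione precursor, was higher with 11 and 0 counts. Fibroblast and mesothelial markers were higher in the lactate+AZD group, up to 17403 and 2001 CPM in W14, and without W14 the log2 ratios of Ogdh, Idh1 and Fh1 were 1.45, -0.86 and 0.66. Without W14, Slc25a10, Rab32, Nfkb1, Tnf and Ptgs2 kept their calls, Pdha1 stood at 0.51 (-0.31 to 1.31), and Pdk1 and Gclc had 7 and 6 counts in all, too few to be measured. Aco1, at -1.11 (-2.12 to -0.20), was then at least 2-fold lower.

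Taking cytoplasm first, as scMeT-seq does, can be read against lysing the whole cell in the lactate-treated cells of the technique experiment, which shares its 3 whole cells with the lactate comparison in whole cells. Of the 9 members 1 was at least 2-fold higher after scMeT-seq, where 20.3% of the 9723 genes measured were, and none at least 2-fold lower, where 19.7% were. Cs held 223, 246, 203 and 240.2 CPM in Lactic13, Lactic14, Lactic16 and Lactic17 and 62.7, 129 and 66.1 CPM in the whole cells Lactic5, Lactic6 and Lactic7. Every scMeT-seq cell lay above every whole cell, as for 1.7% of all genes, and the log2 ratio was 1.39 (1.12 to 1.65). It ran from 1.197 to 1.82 when single cells were left out, and was 1.11 with the control whole cells, at 134 and 118 CPM, added to the whole cells.

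Idh1 separated the other way. The scMeT-seq cells held 469, 356, 285 and 446 CPM and the whole cells 637, 658 and 567.9 CPM, a separation downward that 3.08% of all genes showed. Its log2 ratio was -0.66 (-0.78 to -0.53), and with the control whole cells added, of which CTL8 at 479.6 CPM was the lowest, it was -0.55. The other members overlapped between the techniques, with log2 ratios of -0.40 (-0.68 to -0.11) for Suclg1, -0.20 for Ogdh, -0.18 (-0.33 to -0.03) for Mdh1, -0.04 for Mdh2, 0.10 for Idh3a and 0.53 for Fh1, which was 1.05 without Lactic7 and -0.28 without Lactic14. The median of the members was -0.18, beside 0.02 over all genes, and was 0.19 without Lactic6.

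Of the 12 further cycle enzymes, Dld was lower after scMeT-seq at -1.66 (-2.07 to -1.27) with no overlap, Suclg2 was lower at -1.97 (-3.18 to -0.89) from 10 and 28 counts, and none was at least 2-fold higher. Sdha stood at -0.58 (-0.75 to -0.41), and Aco1, Idh2, Idh3b, Idh3g, Dlst, Sucla2, Sdhb, Sdhc and Sdhd lay between -0.37 and 0.35. Acly, which splits exported citrate to acetyl-CoA in the cytosol, was lower at -2.04 (-2.39 to -1.70) and Me1 higher at 2.10 (1.46 to 2.80), both with no overlap. Pcx, the pyruvate carboxylase that refills the cycle, had 33 counts in the 3 whole cells and none after scMeT-seq, which made it at least 15.4-fold lower. In all, 3 of the 12 entry genes measured were higher and 2 lower, 1 of the 10 shuttle and export genes was higher and 2 were lower, 2 of the 5 itaconate genes were higher and 1 lower, 2 of the 8 inflammatory genes measured were higher and 2 lower, and 1 of the 8 Nrf2 pathway genes was lower. The shares over all genes were 20.3% higher and 19.7% lower. Il1b stood at 2.27 (1.89 to 2.68) and Lrrk2 at -1.25 (-1.47 to -1.02) between the techniques.

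**Figure D4:**
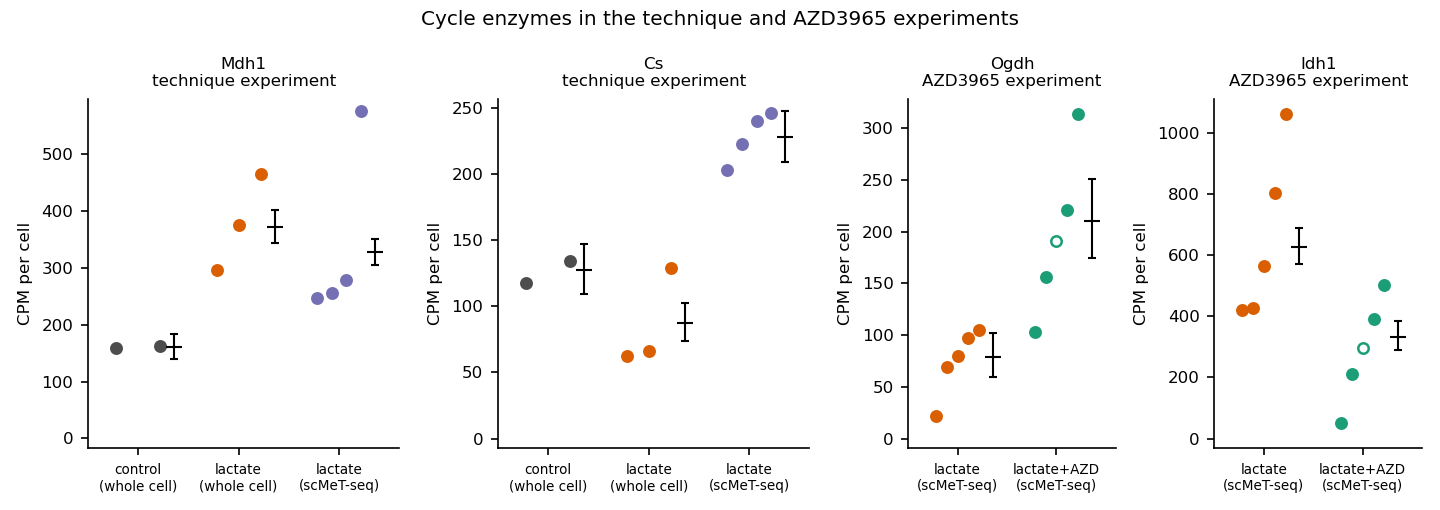
CPM per cell of Mdh1 and Cs in the technique experiment and of Ogdh and Idh1 in the AZD3965 experiment, sorted by value within a group, with an open circle for W14 and bars for the summed CPM with its 95% Poisson interval. The whole lactate-treated cells lie above both control cells for Mdh1, the scMeT-seq cells above all whole cells for Cs, and only F8 of the lactate+AZD cells lies below 105 CPM for Ogdh.

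Levels of different members can be set side by side only per length, here as summed CPM per kilobase of the longest principal transcript of GENCODE M21. Mdh2, Idh1 and Mdh1 were among the 4 highest members in all 7 groups, and Fh1 and Idh3a were among the lowest 3. In control cells of the lactate experiment the order began with Mdh2 at 233, Idh1 at 134 and Mdh1 at 120 CPM per kilobase, followed by Suclg1 at 84.6, Acod1 at 82.5, Cs at 56.5, Ogdh at 36.6, Idh3a at 23.5 and Fh1 at 12.4. After lactate it began with Acod1 at 206, Idh1 at 168, Mdh2 at 161 and Mdh1 at 60.6, and Cs, Suclg1, Ogdh, Idh3a and Fh1 followed at 49.2, 27.7, 26.0, 17.7 and 5.87. Idh1 and Mdh2 after lactate, and Suclg1 and Acod1 in controls, differed by less than the spread over cells, in which Idh1 ran from 159 to 714 CPM after lactate.

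The place of Acod1 among the members differed between groups. Per kilobase it ranked 5 of 9 in control cells and 1 of 9 in treated cells of the lactate experiment, 2 and 3 in control and treated whole cells, 3 in the scMeT-seq cells of the technique experiment, and 9 in both groups of the AZD3965 experiment. With all annotated exons in place of the principal transcript the ranks of Acod1 were 4 and 1 in the lactate experiment, 2 and 2 in whole cells, 1 in the scMeT-seq cells, and 8 and 9 in lactate-treated and lactate+AZD cells of the AZD3965 experiment. The place of Mdh2 also depended on this choice, at 1 of 9 by principal transcript and 3 of 9 by all exons in control cells of the lactate experiment.

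**Figure D5:**
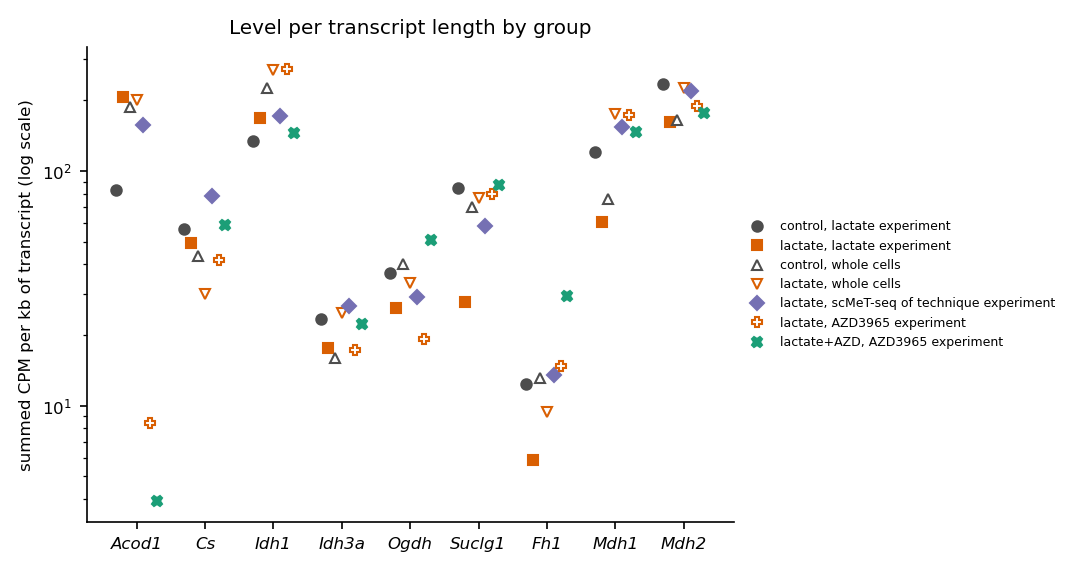
Summed CPM per kilobase of the longest principal transcript (log scale) of the 9 members in the 7 groups, 1 symbol for each group. Within the lactate experiment Acod1 stands at 82.5 in control and 206 in treated cells and Suclg1 at 84.6 and 27.7. The 3 experiments were counted in separate tables, so levels are read within an experiment.

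Across the 16 cells of the lactate experiment, cells with more Acod1 tended to have less Suclg1 (Spearman's rho -0.70) and Mdh1 (-0.54), and Suclg1 and Mdh1 went together (0.70). Idh1 and Ogdh went apart (-0.67). In the 10 cells of the AZD3965 experiment the values of the same pairs were -0.25, -0.77, 0.22 and -0.61, and in the 9 cells of the technique experiment 0.48, -0.32, -0.37 and 0.45. Acod1 and Mdh1 had a negative rho in all 3 tables, whereas the other 3 pairs changed sign in the technique experiment. The cells of a table share its treatment groups and differ in depth, and in the AZD3965 experiment 7 of the 10 Acod1 values were 0. These rho values include the cells with fibroblast or mesothelial markers, CTL32 among them, and were not worked out without them.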

How the data were processed

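Single-cell cDNA libraries were made by SMART-seq2 with 20 cycles of amplification and sequenced. The authors trimmed reads with fastp 0.20.0, aligned them with HISAT2 2.1.0 to mm10 and assembled and counted them with StringTie, and read counts per gene were deposited by the authors, unnormalized, in 3 tables, of which that of the AZD3965 experiment gives gene symbols only. In that table a count of 2 occurred 6215 times and a count of 1 occurred 1914 times. Counts keep no strand.

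The members and the gene lists were chosen with earlier results of these data known. CPM values are counts scaled to a total of 1e+06 for a cell or, for a group, for its summed cells. Each condition counted as 1 sample, since no animal or culture is named, and no test was run. The log2 ratio of 2 summed CPM values has an exact binomial interval, and a sum its Poisson interval, at 95%. A gene was measured with 10 or more counts over both groups, and called at 2-fold or more with an interval leaving out 0. A sum of 0 was set to 3 counts. Cells whose fibroblast or mesothelial markers reached 10% of the macrophage markers were left out as an alternative. Others were the mean or median CPM, TMM factors, filters of 1 or 100 counts, single cells left out, cells with a number or letter in both groups, halved counts, all 5 whole cells, and thinning. Leaving those cells out of the gene lists was chosen after seeing the data. All members and 12 further cycle enzymes are named (1 more item of that list is not reported here), and from each other list called genes, at most 5 a comparison by size of ratio, and the 5 genes most like Acod1. Lengths came from the longest principal transcript of GENCODE M21 (GRCm38). Python 3.11.15, numpy 2.4.6, pandas 2.3.3, scipy 1.17.1, matplotlib 3.10.9 and R 4.3.3 were used, the last with edgeR 4.0.16 for its TMM factors alone, and the scripts were tested on simulated data.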

Additional observations from a re-analysis of the deposited data

Results flagged for a closer look

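In groups of 4 to 10 cells, a member's highest or lowest cell stood apart by Dixon's 95% criterion in 5 of the 45 sets of values examined, where chance marks about 1 in 20, and 1 of the 5 met it by construction. Acod1 in the lactate+AZD cells had 66.4 CPM in F9 and 0 in the other cells, a set in which any single cell with a count would meet the criterion, so that it has no bearing on the comparison with chance. In the treated cells of the lactate experiment, Lactic31 had 235 CPM of Ogdh, against 68.2 to 142 CPM in the others, and 394 CPM of Mdh2, against 171 to 269 CPM. Among the 4 scMeT-seq cells of the technique experiment, Lactic14 had 575 CPM of Mdh1, against 246 to 279.5 CPM, and Lactic13 had 122 CPM of Mdh2, against 377 to 414 CPM.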

How the results depend on the processing

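No paired analysis was possible because the results come from no test and nothing ties cells of a number or letter to a shared animal or day, so that values within letters or with numbers in both groups are subsets of cells and not pairs. Counts per cell and the number of cells limit every value. In the lactate experiment, the log2 ratio of Acod1 (1.32) was 2.23 by median CPM, 1.10 without the cells with fibroblast or mesothelial markers, 1.76 with numbers in both groups, and 0.99 to 2.07 with single cells left out. Without the cells with such markers Fh1 was 0.039 and the members' median (-0.50) was 0.019. With single cells left out this median ran from -0.64 to -0.34, the members called from 1 to 4 (3 in all) and all genes called from 3911 to 4338 (4023 in all). That last count was 2393 by median CPM and 1563 at 100 counts.

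In whole cells, Acod1 (0.11) was -0.10 by mean CPM, -0.69 by median CPM, 0.30 with TMM factors and -0.70 to 1.10 with single cells left out, which gave members' medians (0.13) of -0.37 to 0.32, 1 to 2 members called and 3899 to 4369 genes called (3940 in all, and 1192 at 100 counts). With AZD3965, the members' median (0.13) was 0.64 within letter T, and the members called (1) were 4 by mean CPM, 2 with TMM factors, and 2, 2 and 3 within T, W and F. All genes called (3000) were 1058 by median CPM, 278 at 100 counts, 1670 within T and 1583 within F. Leaving out single cells gave -1.86 to 0.12 for Acod1, -0.16 to 0.50 for the median, 1 to 4 members and 2824 to 3209 genes. Counts of Acod1 were too few for a value within T or W.

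Between the techniques, Acod1 (-0.36) was 0.29 by median CPM, the members' median (-0.18) was 0.15 with all 5 whole cells, and genes called (3888) were 1327 at 100 counts. Leaving out single cells gave -0.62 to 0.31, -0.34 to 0.19, 1 to 2 members and 3639 to 4352 genes. Over all other settings, 186 of the values of single members moved by less than the spread, 32 by more and 1 reversed. The cause of these changes was not tested.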
